A study of Mus musculus with 12 samples.

Results

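The genes described here are 45 cell cycle genes, 23 of mitosis and 22 of DNA replication, among the 41214 genes of the count tables. They were taken by name from a list of known cell cycle genes, a rule that uses no measured value. The list itself was chosen with earlier results of these data known, so it is not blind to them. All 45 were found and passed the filter on low counts. RNA was sequenced from leukaemic cells of 4 mice on the C57/BL6 NUP98-HOXD13 background, 2 of genotype KI and 2 of genotype KD at Gfi1, which encodes a zinc finger repressor of blood progenitors. The labels give the RNA samples as het for KI and homo for KD, and name the genotypes KI/wt and KD/KD on the chromatin samples of the same series. All 4 mice carry the NUP98-HOXD13 transgene, a fusion that gives mice myelodysplasia and then acute myeloid leukaemia, so there is no sample without it. The labels give no age, sex, tissue or sort for the cells, and do not describe the Gfi1 alleles further.

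Dividing cells pass through a fixed series of steps. In G1 the transcription factor E2F1 and the E cyclins start the programme of DNA synthesis, origins are loaded with the MCM helicase, and the helicase is then switched on so that polymerases copy the genome. Before and during mitosis another set of genes is used, for the B cyclins and CDK1, the Aurora and Polo kinases, the kinetochores, the condensins and the spindle motors. Transcripts of both sets are known to be low in resting cells, and mature granulocytes no longer divide.

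The 4 libraries differed in depth and makeup. KI replicate 1 had 4581593 gene counts, and the other 3 had from 10263454 to 11934542. The share of gene counts in 3 satellite repeat loci was 39% and 44.4% in KI, and 19.4% and 21.2% in KD. Reads that aligned uniquely but outside genes made up 63.2% to 88.3%, with the highest share in KI replicate 1. The libraries are stranded, and the sources used here do not say with which strand setting reads were counted, so whether each count is of the sense strand is not known. The receptor genes of smell, pheromones and taste, silent in blood, had a total level of 893.8 CPM in KI replicate 1, where CPM is the count relative to the TMM-scaled library size, and of 134.7 to 218.7 CPM elsewhere. Gfi1 itself had 36.2 and 89.0 CPM in KI, against 7.22 and 1.12 CPM in KD. This is the direction of the labels, though its adjusted p was 0.518 by edgeR's quasi-likelihood method. The granule genes Mpo, Elane, Ctsg and Prtn3, which mark myeloid progenitors, were at 154 CPM or more in every library. Others of the 13 progenitor markers were lower, such as Meis1, Cd34 and Hoxa9 at 1.19, 6.41 and 10.3 CPM in KI replicate 2. Each genotype had 2 mice, and the p-values below rest on these 4 animals alone. The spread of each gene in these tests is estimated in part from the other genes.

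The promoters of these genes differed between the 2 sets in the short sequence motifs they held. Cell cycle promoters are known for 3 motifs: the cell cycle homology region (CHR, TTTGAA), the CCAAT box and the E2F site. The CHR is bound by complexes that control mitotic genes, and the CCAAT box by NF-Y. RefSeq windows of 300 bases on GRCm38.p6, from 250 before to 50 after the start, were matched by symbol for 37 of the 45 members. The RefSeq gene span begins upstream of the start used for 18 of these 37, and upstream of the whole window for 4 of them, Aurka, Ncapd2, Cdc6 and E2f1. The E2F site was searched in 4 forms, of which TTCCCGC is the first, and TTGGCGC is the second. The third form is TTCGCGC, while TTGCCGC is the fourth. The CHR was searched as TTTGAA alone, so variants of it are not counted. Every motif was searched on both strands, and matches of different motifs may overlap. The CHR letters were in 16 of 19 mitosis promoters (84.2%) and 3 of 18 replication promoters (16.7%), beside 18.2% of the 27025 promoters of all genes. An E2F match was in 5 of 19 mitosis promoters (26.3%) and 10 of 18 replication promoters (55.6%), beside 9.72% of all. CCAAT was in 18 of the mitosis and 11 of the replication promoters (94.7% and 61.1%), beside 38.0% of all. CHR and CCAAT stood together in 15 mitosis promoters (78.9%) and 2 replication promoters (11.1%), beside 7.16% of all. The promoters were GC-rich, with a median of 60.7% G and C for mitosis and 57.3% for replication members, beside 52.7% over all promoters. A match is a description of these letters and does not show that a factor binds there.

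Of the genes whose values are described below, 7 promoters are shown to let the 2 sets be compared, 4 of mitosis and 3 of replication genes. Each is written 5′ to 3′ on the strand of its gene, in lower case, with matches to CHR, CCAAT or E2F in capitals, on either strand. Mki67 lies on the minus strand at chr7:135716330-135716629, Cdk1 on minus at chr10:69352863-69353162, Kif23 on minus at chr9:61946750-61947049 and Bub1 on minus at chr2:127831810-127832109. Mcm3 lies on minus at chr1:20820263-20820562, Pola1 on minus at chrX:93632106-93632405 and Cdc6 on plus at chr11:98907901-98908200.
Mki67: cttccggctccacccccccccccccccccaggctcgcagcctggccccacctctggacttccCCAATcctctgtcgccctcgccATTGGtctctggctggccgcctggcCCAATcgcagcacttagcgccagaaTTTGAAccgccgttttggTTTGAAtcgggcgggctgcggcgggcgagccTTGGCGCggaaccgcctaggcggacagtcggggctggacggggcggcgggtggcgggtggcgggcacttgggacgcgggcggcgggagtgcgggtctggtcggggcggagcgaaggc
Cdk1: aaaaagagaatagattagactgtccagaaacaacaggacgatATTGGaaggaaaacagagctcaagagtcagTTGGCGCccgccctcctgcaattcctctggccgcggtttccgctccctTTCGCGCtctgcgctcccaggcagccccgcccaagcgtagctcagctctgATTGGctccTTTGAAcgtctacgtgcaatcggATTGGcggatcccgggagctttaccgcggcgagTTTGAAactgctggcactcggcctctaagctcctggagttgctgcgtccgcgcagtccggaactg
Kif23: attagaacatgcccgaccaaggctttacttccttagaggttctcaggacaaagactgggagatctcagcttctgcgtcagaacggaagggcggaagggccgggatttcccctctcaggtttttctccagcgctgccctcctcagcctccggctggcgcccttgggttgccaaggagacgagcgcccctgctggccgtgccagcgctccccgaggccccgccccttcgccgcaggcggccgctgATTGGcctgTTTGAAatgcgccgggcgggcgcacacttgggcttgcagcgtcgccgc
Bub1: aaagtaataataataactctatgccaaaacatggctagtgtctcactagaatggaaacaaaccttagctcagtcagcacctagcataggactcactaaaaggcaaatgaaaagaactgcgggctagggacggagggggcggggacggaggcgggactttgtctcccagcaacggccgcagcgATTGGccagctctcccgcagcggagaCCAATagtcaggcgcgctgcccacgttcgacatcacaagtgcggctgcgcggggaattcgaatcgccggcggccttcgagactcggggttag
Mcm3: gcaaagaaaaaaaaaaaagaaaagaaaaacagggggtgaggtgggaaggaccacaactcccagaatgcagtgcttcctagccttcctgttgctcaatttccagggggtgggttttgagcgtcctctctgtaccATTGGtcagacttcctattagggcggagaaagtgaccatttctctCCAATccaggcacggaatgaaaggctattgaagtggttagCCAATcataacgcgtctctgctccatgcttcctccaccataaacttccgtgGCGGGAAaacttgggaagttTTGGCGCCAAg
Pola1: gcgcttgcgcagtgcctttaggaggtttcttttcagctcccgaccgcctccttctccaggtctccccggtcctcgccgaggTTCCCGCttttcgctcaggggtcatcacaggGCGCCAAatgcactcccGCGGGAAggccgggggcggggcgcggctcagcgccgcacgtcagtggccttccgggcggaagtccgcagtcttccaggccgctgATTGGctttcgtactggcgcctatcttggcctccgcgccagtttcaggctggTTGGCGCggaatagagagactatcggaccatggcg
Cdc6: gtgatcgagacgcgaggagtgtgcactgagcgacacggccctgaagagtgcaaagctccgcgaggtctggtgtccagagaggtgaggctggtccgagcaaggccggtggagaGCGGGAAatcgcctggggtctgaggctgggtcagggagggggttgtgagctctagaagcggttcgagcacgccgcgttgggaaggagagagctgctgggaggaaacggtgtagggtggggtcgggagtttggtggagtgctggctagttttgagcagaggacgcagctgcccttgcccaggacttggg
The Mki67 window holds 2 CHR matches next to 3 CCAAT boxes and 1 E2F match, and the Cdk1 window 2 CHR, 3 CCAAT and 2 E2F matches. Kif23 has 1 CHR a few bases past an inverted CCAAT box. Bub1 has 2 CCAAT boxes and no TTTGAA, and whether it holds a variant of the CHR was not searched. Mcm3 has 3 E2F matches, of which 2 overlap on opposite strands, and 3 CCAAT matches, Pola1 has 4 E2F matches and 1 CCAAT, and Cdc6 has 1 E2F match alone. The Cdc6 start used here lies 442 bases inside its RefSeq span, the Pola1 start 232 bases and the Mki67 start 71 bases. None of these 3 replication windows holds the CHR letters.

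The question for the RNA was whether the leukaemias of the 2 genotypes differed in these genes. Mitosis genes tended to be higher in KD, by small amounts, and no member passed the test across all genes. Of the 23 mitosis members 22 had a positive log2 fold change, KD over KI, with a median of 0.35 and a range of -0.10 to 0.72. Of the 22 replication members 17 were positive, with a median of 0.24 and a range of -0.37 to 0.57. Over all 13822 genes tested 44.5% were positive, and the median was -0.06. In edgeR's quasi-likelihood test 0 members and 0 genes (0%) had an adjusted p under 0.05, and the lowest adjusted p of a member was 0.518. At an unadjusted p under 0.05 edgeR had 2 members higher in KD, Bub1 and Kif23, and 0 lower, beside 1.29% of all genes higher and 8.34% lower. DESeq2 called 0 members, beside 0.0384% of genes higher and 1.05% lower, and limma-voom called 0 members and 0 genes.

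Both KD libraries lay above both KI libraries for 10 of 23 mitosis members and 1 of 22 replication members, beside 14.5% of all genes tested. Both lay below for 0 mitosis members and 1 replication member, Ccne2, beside 23.5%. The other 33 members overlapped between the genotypes. These shares describe the 2 sets, and the difference between them was not tested, because the members of a set are not replicates. With 2 mice against 2, an exact permutation test on any single value cannot give a two-sided p below 0.333.

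**Figure D1:**
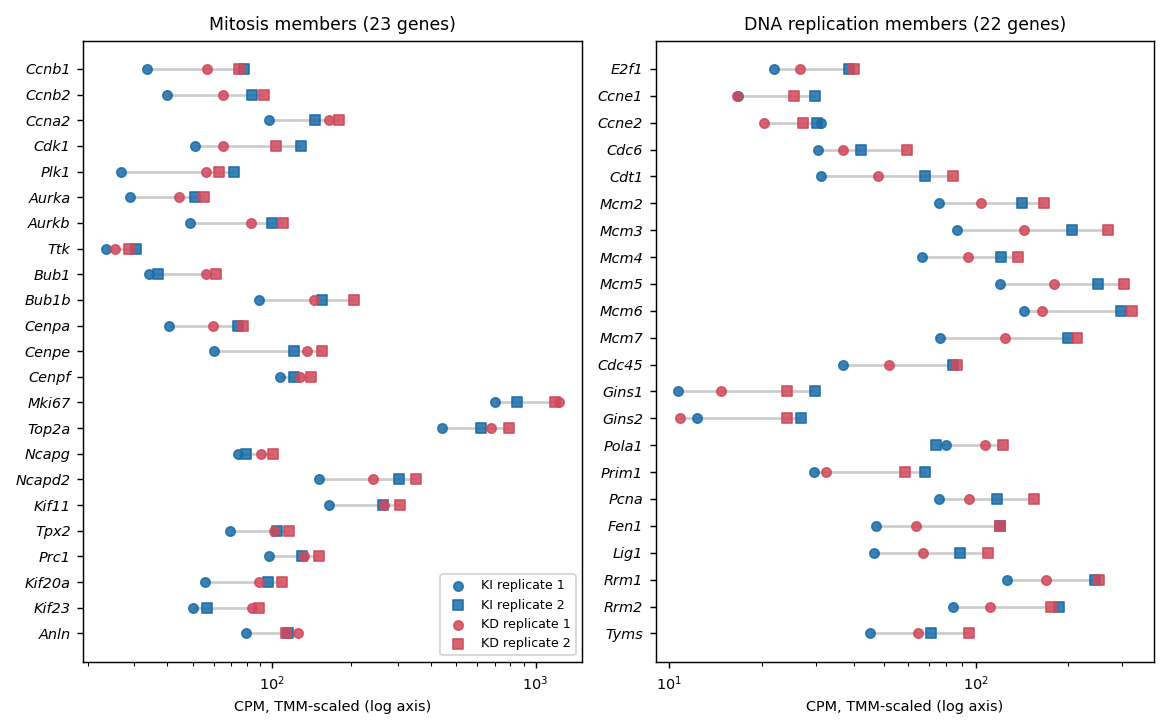
Level of each of the 45 members in each of the 4 libraries, in TMM-scaled CPM on a log axis, with mitosis members on the left and replication members on the right. Grey lines span the range of a gene. KI replicate 1 is the lowest point for 41 of the 45 genes, and in the right panel the squares (replicate 2) lie right of the circles of their own genotype for 20 of 22 genes in KI and 22 of 22 in KD.

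Among genes of chromosome structure, Mki67, which encodes the Ki-67 protein that coats mitotic chromosomes and serves as the usual proliferation marker, was higher in both KD mice. It had 703 and 853 CPM in KI and 1230 and 1180 CPM in KD, with no overlap between the genotypes. Its fitted log2 fold change was 0.63 ± 0.34 (SE), a ratio of 1.55 (edgeR adjusted p = 0.620). Top2a, the topoisomerase that untangles sister chromatids, had 442 and 621 CPM in KI and 677 and 796 CPM in KD. That is a log2 difference of 0.47 ± 0.35 (SE), and the 2 genotypes again did not overlap, although KI replicate 2 was nearer to KD replicate 1 than to the other KI mouse. The condensin subunits Ncapg and Ncapd2, which compact chromosomes, had log2 fold changes of 0.32 and 0.38. Ncapg did not overlap between genotypes, and Ncapd2 did.

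Among mitotic kinases and checkpoint genes, Bub1, a kinase of the spindle checkpoint, had the lowest p of all 45 members. Its level was 34.1 and 36.9 CPM in KI (mean 35.5 ± 1.98, SD, n = 2) and 56.0 and 61.2 CPM in KD (mean 58.6 ± 3.62, SD, n = 2). The mice of each genotype were close together and the genotypes apart. The log2 fold change was 0.72 ± 0.28 (SE), a ratio of 1.65, with unadjusted p = 0.0422 and an edgeR adjusted p = 0.518. Bub1b, which encodes the checkpoint protein BubR1, lay at 89.5 and 155 CPM in KI and 144 and 205 CPM in KD, a log2 difference of 0.51 ± 0.38. Its genotypes overlapped, as did those of Plk1, Aurka, Aurkb and Ttk, the other kinases of the group, with log2 fold changes of 0.27, 0.32, 0.37 and 0.00. Plk1, the Polo kinase of mitotic entry, had the widest gap between the KI mice among mitosis members, at 26.7 and 71.7 CPM, beside 56.3 and 62.6 CPM in KD.

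Spindle and cytokinesis genes followed the same direction. Kif23, a motor of the central spindle that acts in cytokinesis, was at 50.1 and 56.8 CPM in KI and 83.5 and 89.2 CPM in KD. The mice of a genotype were close together, and the log2 fold change was 0.69 ± 0.27 (SE), a ratio of 1.61, with unadjusted p = 0.0438 and adjusted p = 0.518 in edgeR. Kif11, the motor that separates the spindle poles, had 165 and 263 CPM in KI and 267 and 305 CPM in KD, a log2 difference of 0.42 ± 0.34. Its genotypes did not overlap, but KI replicate 2 and KD replicate 1 were nearly equal. Tpx2, Prc1, Kif20a and Anln, which organise spindle microtubules and the cleavage furrow, had log2 fold changes between 0.29 and 0.38, with no overlap for Prc1 alone.

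At the centromere, Cenpe, a kinetochore motor, lay at 60.1 and 121 CPM in KI and 136 and 154 CPM in KD. The log2 difference was 0.68 ± 0.40 (SE), with adjusted p = 0.667 in edgeR, and the value was 0.39 without KI replicate 1. Cenpf, a large kinetochore protein, had the narrow range of 107 and 121 CPM in KI and 128 and 141 CPM in KD, a difference of 0.24 ± 0.26. Cenpa, the histone variant of the centromere, overlapped between genotypes, with a difference of 0.25.

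The cyclins and CDK1 had the smallest difference in mean log2 CPM among the mitosis groups, 0.33, with the other groups at 0.42 to 0.47. Ccna2, cyclin A2, lay at 97.2 and 146 CPM in KI and 165 and 179 CPM in KD, a log2 difference of 0.50 ± 0.31 (SE), with no overlap. Ccnb2, a B cyclin, had 39.9 and 83.9 CPM in KI and 65.3 and 93.2 CPM in KD (0.35 ± 0.44), and Ccnb1 had a difference of 0.23. Cdk1, the kinase that these cyclins activate, was the 1 mitosis member with a negative value, -0.10 ± 0.51. Its highest level, 129 CPM, was in KI replicate 2 and its lowest, 51.0 CPM, in KI replicate 1, with the KD mice between them at 65.3 and 103 CPM.

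**Figure D2:**
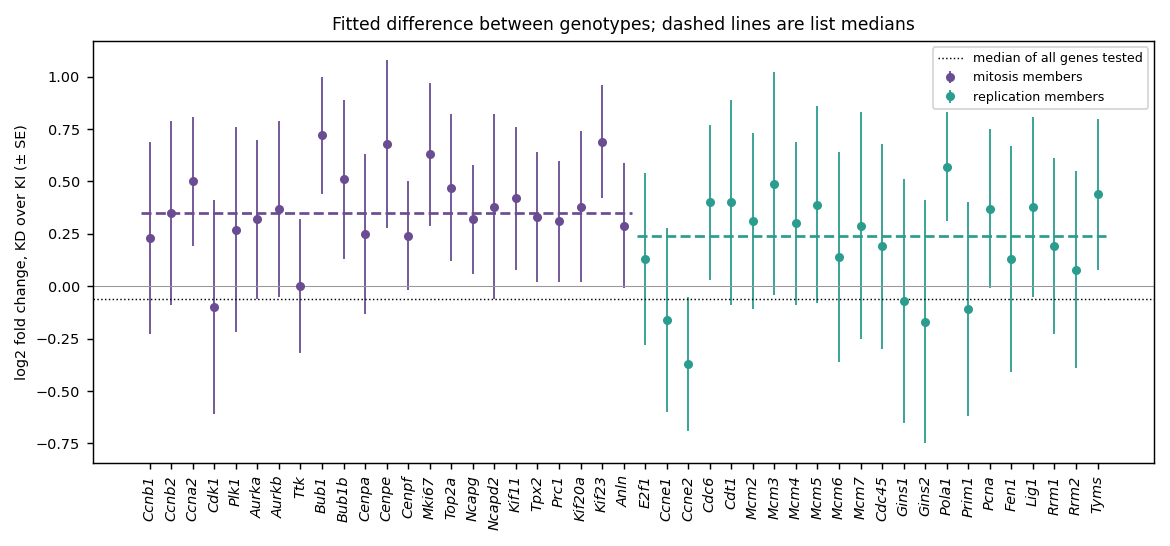
Fitted log2 fold change of each member, KD over KI, with its standard error, for mitosis members (left) and replication members (right). Dashed lines are the medians of 0.35 and 0.24, and the dotted line is the median of all genes tested, -0.06.

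For 20 of 22 replication members the gap between the KI mice was larger than the fitted difference between genotypes, beside 63.7% of all genes tested. Mcm3, a subunit of the MCM helicase that is loaded at origins, lay at 86.5 and 205 CPM in KI and 143 and 269 CPM in KD, a log2 difference of 0.49 ± 0.53 (SE). Mcm2, of the same complex, had 75.6 and 141 CPM in KI and 104 and 166 CPM in KD, a difference of 0.31 ± 0.42. In both genes the order from low to high was KI replicate 1, KD replicate 1, KI replicate 2, KD replicate 2, so the genotypes alternated. Mcm4, Mcm5, Mcm6 and Mcm7 had differences of 0.30, 0.39, 0.14 and 0.29 and all overlapped. Of the loading factors, Cdc6 lay at 30.6 and 42.2 CPM in KI and 36.9 and 59.4 CPM in KD (0.40 ± 0.37), and Cdt1 had the same difference, 0.40. All 8 licensing members were positive and all 8 overlapped between genotypes.

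The 3 genes that activate the helicase had log2 differences of -0.17 to 0.19 and overlapped between genotypes. Cdc45, a part of the active helicase, was at 36.9 and 84.4 CPM in KI and 51.9 and 86.7 CPM in KD, a log2 difference of 0.19 ± 0.49 (SE). Gins2, of the GINS complex that joins it, was at 12.3 and 26.8 CPM in KI and 10.8 and 24.1 CPM in KD (-0.17 ± 0.58), and Gins1 had -0.07. The pair of mice numbered 2 had close levels for these genes in KI and KD, as did the pair numbered 1 for Gins2.

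In DNA synthesis, Pola1, the catalytic subunit of polymerase alpha, was the 1 replication member higher in both KD mice. It had 79.8 and 74.0 CPM in KI (mean 76.9 ± 4.07, SD, n = 2) and 107 and 122 CPM in KD (mean 115 ± 10.2, SD, n = 2). The log2 difference was 0.57 ± 0.26 (SE), with unadjusted p = 0.0735 and adjusted p = 0.549 in edgeR. Prim1, the primase subunit that works with it, had -0.11, with levels of 29.7 and 68.3 CPM in KI and 32.5 and 58.7 CPM in KD. Pcna, the sliding clamp, had 75.6 and 117 CPM in KI and 95.1 and 154 CPM in KD (0.37 ± 0.38). Fen1 and Lig1, which process and join lagging strand fragments, had 0.13 and 0.38 and overlapped.

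The 3 nucleotide enzymes had positive values and overlapped between genotypes, and of the 3 regulators of S phase entry 1 was positive and 2 were negative. Rrm1, the large subunit of ribonucleotide reductase, lay at 126 and 244 CPM in KI and 169 and 252 CPM in KD (0.19 ± 0.42), and its partner Rrm2 had 0.08. Tyms, thymidylate synthase, lay at 45.2 and 71.5 CPM in KI and 64.5 and 94.8 CPM in KD (0.44 ± 0.36). E2f1 lay at 22 and 38.4 CPM in KI and 26.6 and 39.9 CPM in KD (0.13 ± 0.41). The E cyclins, which drive entry into S phase with CDK2, leaned the other way. Ccne1 was at 16.7 and 29.9 CPM in KI and 16.6 and 25.5 CPM in KD (-0.16 ± 0.44). Ccne2 was at 31.3 and 30.3 CPM in KI and 20.4 and 27.3 CPM in KD (-0.37 ± 0.32), with adjusted p = 0.840 in edgeR, and did not overlap.

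The mice of a genotype differed from each other in these genes as well. In both genotypes the mouse numbered 2 was higher than the mouse numbered 1 for 41 of the 45 members, 21 of mitosis and 20 of replication, beside 39.4% of all genes tested. The median log2 ratio of replicate 2 to replicate 1 over replication members was 1.00 in KI and 0.70 in KD. Over mitosis members it was 0.67 in KI and 0.19 in KD, and over all genes tested 0.01 and 0.14. The gap between the mice of a genotype was set against the fitted difference between genotypes. A gap between 2 single mice varies more than a difference between means of 2 mice, so it is often the larger. The KI gap was the larger for 18 of 23 mitosis and 20 of 22 replication members. That is 38 of 45 members, beside 63.7% of all genes tested. The KD gap was the larger for 7 of 23 mitosis and 21 of 22 replication members. Both gaps were larger for 7 of 23 and 20 of 22. For the KD gap, and for both gaps together, no share over all genes is given, and the contrast between the sets was not tested. Gins1, Plk1 and Mcm7 had the widest KI gaps, at log2 1.49, 1.43 and 1.40, and Gins2 and Mcm6 the widest KD gaps, at 1.15 and 0.97. The exceptions in KI were Pola1 and Ccne2, at -0.11 and -0.05, and in KD Anln and Mki67, at -0.14 and -0.05.

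**Figure D3:**
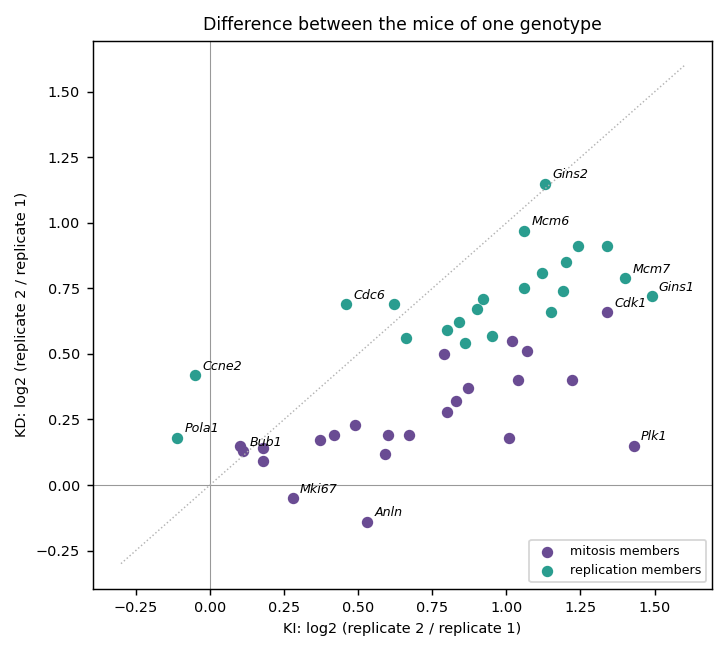
Log2 ratio of replicate 2 to replicate 1 in the KI mice (horizontal axis) and in the KD mice (vertical axis), 1 point per member, with the line of equal ratios dotted. Of the 45 points 41 lie above 0 on both axes, and replication members sit higher on the KD axis (median 0.70) than mitosis members (median 0.19).

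The replicate numbers name separate mice and the labels do not say that they mark a shared litter or day. KI replicate 1 was the lowest of the 4 libraries for 23 of 23 mitosis and 18 of 22 replication members, beside 33.6% of all genes tested. It is also the library with the fewest gene counts, the largest share of reads in no gene and the highest receptor sum, and the part of these in the result was not tested. KI replicate 2 was above KD replicate 1 for 12 of 23 mitosis and 21 of 22 replication members, beside 62.1% of all genes. It was above KD replicate 2 for 5 of 23 and 7 of 22, beside 54.9%. The difference between the 2 sets in these counts was not tested.

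Gene length was set beside the gaps between mice. Across the 45 members the Spearman correlation of the RefSeq gene span (median 17767 bases) with the log2 ratio of replicate 2 to replicate 1 was -0.48 in KI and -0.43 in KD. The 2 lists differ in span, with medians of 26667 bases for mitosis and 15061 for replication members. Within mitosis members the correlations were -0.51 and -0.40, and within replication members -0.18 and -0.22. Over the 13120 genes tested that have a span they were -0.26 and -0.21. With the log2 fold change between genotypes the span correlated at 0.34 across the 45 members and -0.04 over all genes. Within mitosis members this correlation was 0.21, and within replication members 0.36. These are descriptions across genes that share the same 4 libraries. Pola1, with the longest span of the members (327622 bases on chromosome X), had the lowest KI ratio. Pcna, with the shortest span (3895 bases on chromosome 2), had 0.62 in KI and 0.69 in KD. The spans of 13 members overlap another protein-coding gene in RefSeq, among them Ccna2, Aurka, E2f1, Ccne2, Mcm7, Cdc45, Gins2 and Fen1, and reads there may be shared or lost between neighbours.

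The balance of replication over mitosis transcripts can be read inside each library without any scaling between libraries. The summed counts of the 22 replication members divided by those of the 23 mitosis members gave 0.504 and 0.663 in KI and 0.423 and 0.615 in KD. The genotypes overlapped, and the lower value of each genotype was that of the mouse numbered 1. These sums weigh abundant genes most. Mki67 and Top2a gave 3033 and 1904 of the 11066 mitosis counts in KI replicate 1, and 17339 and 9574 of 58230 in KD replicate 1. A mean of log2 CPM weighs every member alike. As a difference of mean log2 CPM, replication minus mitosis, the values were -0.60 and -0.37 in KI (mean -0.49 ± 0.16, SD, n = 2) and -0.90 and -0.44 in KD (mean -0.67 ± 0.32, SD, n = 2). The difference of -0.18 between the genotype means is smaller than the SD between the KD mice. The medians of fitted log2 fold change of the 2 lists differed by -0.12, replication minus mitosis, a value that was 0.03 without KD replicate 1 and -0.39 without KD replicate 2.

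**Figure D4:**
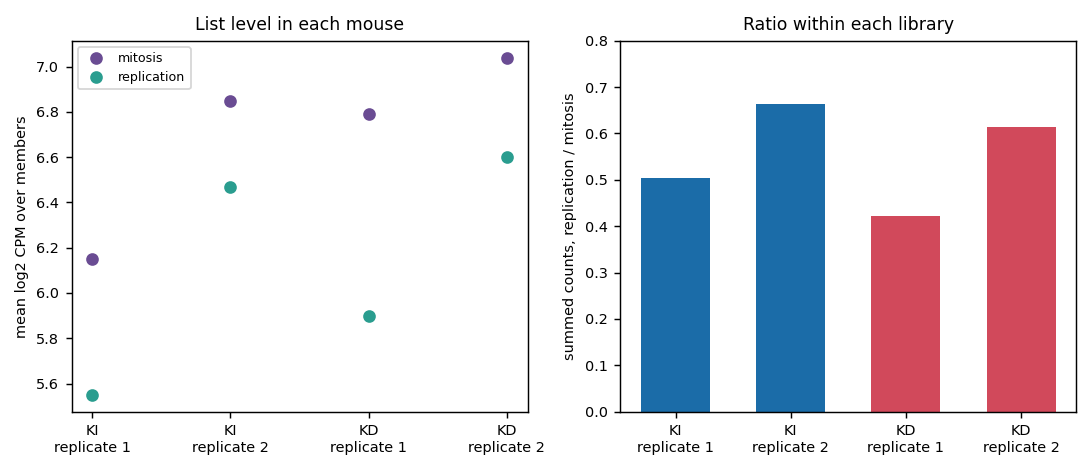
Left, mean log2 CPM over the mitosis and the replication members in each library. Right, summed counts of replication members divided by those of mitosis members in each library, from 0.423 in KD replicate 1 to 0.663 in KI replicate 2, where the genotypes overlap.

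The size of the genotype difference, and for replication members its sign, depended on which mice were compared. With KI replicate 1 left out the mitosis median was 0.20, and with KI replicate 2 left out it was 0.88. It was 0.59 when KD replicate 1 was dropped and 0.27 when KD replicate 2 was dropped. The replication median was -0.09 without KI replicate 1 and -0.12 without KD replicate 2, but 0.87 without KI replicate 2 and 0.62 without KD replicate 1. Without KI replicate 2 edgeR called 7 members higher in KD: Ccnb1, Ccnb2, Plk1, Aurkb, Cenpe, Mcm3 and Mcm7, with log2 fold changes of 1.06 to 1.37 and adjusted p of 0.0182 to 0.0479. In that fit 1.7% of genes were called higher and 23% lower. It sets both KD mice against KI replicate 1 alone, whose spread is assumed to be that of the KD mice. With all 4 libraries none of the 7 was called. Without KI replicate 1, KI replicate 2, KD replicate 1 and KD replicate 2 in turn, 19, 23, 23 and 21 of 23 mitosis members were positive. Of 22 replication members 10, 21, 21 and 7 were, beside 50.3%, 47.4%, 44.6% and 34.7% of all genes. Bub1, Kif23, Mki67 and Pola1, picked here after their values were seen, were positive whichever library was left out. This was not particular to them, and held for other members such as Ccna2, Top2a, Cenpf and Tyms. The log2 fold change lay between 0.72 and 0.88 for Bub1, 0.71 and 0.88 for Kif23, 0.64 and 0.88 for Mki67, and 0.55 and 0.77 for Pola1. Cdk1, at the other extreme, ran from -0.49 to 0.80.

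**Figure D5:**
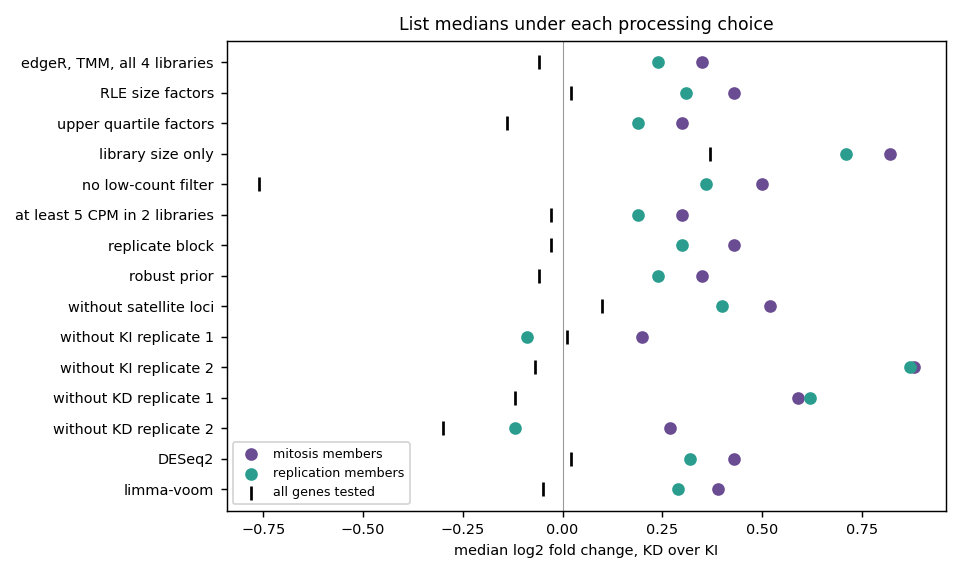
Median log2 fold change, KD over KI, of mitosis members, replication members and all genes tested under each processing choice. The mitosis median lies between 0.20 and 0.88 throughout, and the replication median falls below 0 without KI replicate 1 and without KD replicate 2.

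Other genes of the cell cycle, from lists written from general knowledge, were set beside the members. Of 47 other mitosis genes, 38 leaned towards KD and 9 towards KI. Their median log2 fold change was 0.21, and 13 lay higher and 2 lower in both KD mice, beside 14.5% and 23.5% of all genes tested. The mitosis members had a median of 0.35 and counts of 10 and 0 of 23. Melk, a mitotic kinase, lay at 18.6 and 11.7 CPM in KI and 32.1 and 41.5 CPM in KD (log2 1.29 ± 0.38, SE), and Cep55, of the abscission machinery, had 0.91 ± 0.36. At the other end Sgo1, the guardian of sister cohesion, and the motor Kif18a had -0.32 and -0.21. Of 46 other replication genes, 32 had a value above 0 and 14 below. The median was 0.10, where the replication members had 0.24. Of the 46, 2 lay higher and 0 lower in both KD mice, beside the same 14.5% and 23.5%. Dnmt1, the maintenance DNA methyltransferase, and the replication factor Mcm10 had 0.58 and 0.52, and Orc1 and Cdc7 -0.34 and -0.21, all 4 with overlapping genotypes. In edgeR 0 genes of these lists passed after adjustment over all genes, and at an unadjusted p under 0.05 2 mitosis and 0 replication genes were higher and 0 of either list lower, beside 1.29% and 8.34% of all genes.

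Genes that control G1 went both ways. Of 31 tested, 18 had a value above 0 and 13 below, beside 44.5% of all genes above 0, and the median was 0.07. Of the 32 genes found, tested or not, 8 lay higher and 5 lower in both KD mice, beside 14.5% and 23.5% of all genes tested. Ccnd2, a D cyclin that links growth signals to the cell cycle, was low in both KD mice. Its levels were 31.8 and 48.6 CPM in KI and 13.0 and 12.4 CPM in KD. Its log2 fold change was -1.66 ± 0.36 (SE), with unadjusted p = 0.00427 and adjusted p = 0.518 in edgeR. Cdkn1c, the CDK inhibitor p57, was low everywhere, at 3.94 and 5.93 CPM in KI and 1.34 and 1.21 CPM in KD (-1.95 ± 0.70). Cdkn2c, the CDK4 and CDK6 inhibitor p18, was higher in KD, at 39.7 and 49.0 CPM in KI and 71.3 and 94.5 CPM in KD (0.90 ± 0.30). E2f8, a repressor of the E2F family, had 0.44 ± 0.29. No gene of this list passed after adjustment over all genes.

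Markers of other blood cells moved with the genotypes in these same libraries, and their part in the values above was not tested. Erythroid markers were lower in KD for 25 of 25 members, and their sums were 896.4 and 871.6 CPM in KI against 126.4 and 8.207 CPM in KD, where 5 of them (Hba-a1, Epor, Car1, Kel and Cldn13) were at 0 counts in KD replicate 2. Neutrophil markers were negative for 14 of 14, with sums of 19180 to 21110 CPM in KI and 4534 to 5268 CPM in KD. T cell markers were negative for 11 of 12, with sums of 78.06 to 99.49 CPM in KI and 14.93 to 26.95 CPM in KD. Monocyte markers were positive for 9 of 10, with sums of 1352 to 1816 CPM in KI and 2497 to 2598 CPM in KD. In bulk RNA, fewer cells of a type and less RNA per cell cannot be told apart. Markers of myeloid progenitors went both ways. Of 13, both KD mice were higher for 3, Cd34, Prtn3 and Spi1, and lower for 1, Kit, beside 14.5% and 23.5% of all genes. The mouse numbered 2 was higher in both genotypes for 7 of the 13, beside 39.4% of all genes tested. It was lower in both for 3, Meis1, Hoxa9 and Kit. The log2 ratio of replicate 2 to replicate 1 was 1.77 in KI and 1.58 in KD for Ctsg. For Meis1 it was -3.69 and -2.44, and for Hoxa9 -1.98 and -1.01. The 13 markers summed to 2103 and 4164 CPM in KI and 2888 and 4819 CPM in KD. These sums weigh Mpo most, at 897 and 2040 CPM in KI and 1400 and 2180 CPM in KD. The median log2 fold change of the 13 between genotypes was 0.02, with a range of -1.05 (Meis1) to 2.30 (Cd34).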

How the data were processed

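Leukaemic cells of 4 mice, 2 KI and 2 KD, were sequenced for RNA. The authors deposited raw counts per Ensembl gene (41214 genes, 40254 with a symbol in the name table), and the submitters' processing notes list build GRCm38 with HTSeq, DESeq, SAMtools and TopHat2 2.0.10. The sources used here do not give the annotation, strand setting or read filters. Summary entries that name no gene, 93.2% to 97.9% of each library's total, were left out. The 8 chromatin libraries were not analysed here, because the 1616 per-sample columns of their tables name neither antibody nor mouse.

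In R 4.3.3, genes kept by edgeR 4.0.16 filterByExpr (13822) were scaled by TMM (factors 0.957 and 0.778 in KI, 1.19 and 1.13 in KD) and tested with glmQLFit and glmQLFTest, genotype as the only term, with Benjamini-Hochberg adjustment over all genes and a threshold of 0.05. Each fold change compares KD with KI on the log2 scale, and its standard error comes from the F statistic. Alternatives used DESeq2 1.42.0, limma-voom (limma 3.58.1), other scalings and filters, the replicate number as a block, and each library left out. Genes given in full are Mki67, Cdk1, Mcm2, Pcna, E2f1 and the 2 members of lowest p in each of 10 role groups, with other members by fold change, and the 2 genes of lowest p in each direction of each further list. Plk1 and Prim1, and the progenitor markers, were given levels after their values were seen. The members and lists were chosen with earlier results of these data known, so no list was tested. The B cell markers are not reported here. Promoter sequences are from RefSeq on GRCm38.p6, at the most upstream of the starts listed in the promoter table.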

Additional observations from a re-analysis of the deposited data

How the results depend on the processing

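No member was called in any fit with all 4 libraries. The lists kept the order mitosis above replication in every setting except without KD replicate 1. Satellite repeat loci held 39% and 44.4% of gene counts in KI and 19.4% and 21.2% in KD. With library sizes alone, which make no correction for these shares, the median over all genes moved from -0.06 to 0.37. The mitosis median moved to 0.82. With the satellite loci removed the median was 0.10 over all genes, 0.52 for mitosis and 0.40 for replication members. The part of these loci in the fold changes was not tested. The number of genes called, 0 of 13822 here, was 142 with DESeq2, 169 with no low-count filter, 7 with the replicate block, and between 14 and 4130 when 1 library was left out. Members called then ran from 0 to 7. Leaving out 1 library gave replication medians of -0.12 to 0.87, mitosis medians of 0.20 to 0.88 and differences of -0.39 to 0.03. These fits leave a lone mouse in a genotype and retest the low-count filter, and the cause was not tested.

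Single members near 0 changed sign. With library sizes alone Cdk1 was 0.37, Ccne1 0.30, Ccne2 0.05 and Gins2 0.29. Cdk1 was 0.02 with no filter, 0.01 with the replicate block and 0.06 without satellite loci, where Ccne1 was 0.01. Leaving out 1 library in turn, Cdk1 ran from -0.49 to 0.80, Ccne1 from -0.46 to 0.41, Gins2 from -0.83 to 0.58, E2f1 from -0.15 to 0.68, Cdc45 from -0.20 to 0.99, Rrm1 from -0.09 to 0.82, Mcm2 from -0.02 to 0.92 and Mcm3 from -0.01 to 1.33.

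The replicate numbers are shared by the genotypes, but the labels do not tie them to a litter or day. Deviations of same-numbered mice correlated at 0.249 across genes. With the replicate block the medians were 0.30 for replication and 0.43 for mitosis members, and 0 members were called.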
